A study of Mus musculus with 12 samples.

Results

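Sarcomere and calcium handling genes encode the proteins that make up the contractile unit of striated muscle and those that release, bind and remove the calcium that drives it. The 39 genes described here were taken by gene symbol from a fixed list, among the 22273 gene entries measured in mouse gastrocnemius and the 22252 measured in liver and in gonadal white adipose tissue (WAT). All 39 were found in each tissue. By textbook use, 11 of them belong to fast fibres, 10 to slow fibres, and 18 are used by both or fall outside that division.

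RNA-seq libraries were made from male C57BL/6J mice of 2 genotypes. GRf/f mice carry floxed copies of *Nr3c1*, the glucocorticoid receptor gene, around exon 3, without Cre. GRmKO mice carry the same floxed alleles with a Cre transgene driven by the promoter of *Acta1*, the skeletal muscle actin gene, so that the functional receptor is lost in myofibres and not in the other cells of the muscle. From 8 weeks of age the mice drank water with 1% ethanol, either alone (vehicle) or with 100 µg/mL corticosterone (CORT, the main glucocorticoid of rodents), for 4 weeks. Each library was a pool of RNA from 3 mice, and each combination of tissue, genotype and treatment had 1 library. No group has a replicate, so no p-value is given, and every interval below covers counting error only, not the spread between mice or pools.

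In the sarcomere, myosin heads of the thick filament pull on actin of the thin filament. Troponin and tropomyosin on the thin filament open the binding sites when calcium is bound, and the Z-disc, titin and the M-band hold the filaments in register. Calcium leaves the sarcoplasmic reticulum through the ryanodine receptor when the voltage sensor in the transverse tubule is excited, is stored on calsequestrin, and is pumped back by SERCA. Fast and slow fibres build much of this machinery from different genes, and the gastrocnemius of the mouse consists mostly of fast fibres.

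The 12 libraries held 19394572 to 20940660 expected counts each, and levels are given as CPM, the count scaled to the library total in units per 1000000 counts. A total of 3 counts, used as the floor of detection, equals 0.143 to 0.155 CPM. *Nr3c1* stood at 113 and 90.4 CPM in vehicle- and CORT-treated GRf/f gastrocnemius and at 46.4 and 35.5 CPM in the GRmKO counterparts. A lower level in GRmKO muscle is the direction that the labels give, although a transcript that lacks a single exon is still counted.

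The tissue label was borne out by the level of the members themselves. They took 18.8%, 18.2%, 15.9% and 18.2% of all counts in gastrocnemius of vehicle-treated GRf/f, CORT-treated GRf/f, vehicle-treated GRmKO and CORT-treated GRmKO mice. This order of the 4 libraries is kept wherever 4 values are listed. Per kilobase of transcript, the level in vehicle-treated GRf/f muscle ranged from 10.1 CPM for *Casq2*, the cardiac and slow-fibre calsequestrin, to 29761 CPM for *Acta1*. The 11 fast genes together held 86814 CPM there and the 10 slow genes 1397 CPM.

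The promoters of 5 members with called changes are shown for orientation. They were chosen after their values were seen, 3 from the slow list (*Tnnc1*, *Tnnt1* and *Tpm3*) and 2 from the fast list (*Mylpf* and *Casq1*). Each run is the 250 bases before the RefSeq gene start on GRCm38.p6, read 5′ to 3′ on the strand of the gene. Capitals mark E-boxes (CANNTG on either strand), the core element bound by the basic helix-loop-helix factors of muscle. *Tnnc1* lies at chr14:31208062-31208311 on the plus strand, *Tnnt1* at chr7:4515976-4516225 on the minus strand, *Tpm3* at chr3:90072401-90072650 on the plus strand, *Mylpf* at chr7:127211358-127211607 on the plus strand and *Casq1* at chr1:172219896-172220145 on the minus strand.
Tnnc1: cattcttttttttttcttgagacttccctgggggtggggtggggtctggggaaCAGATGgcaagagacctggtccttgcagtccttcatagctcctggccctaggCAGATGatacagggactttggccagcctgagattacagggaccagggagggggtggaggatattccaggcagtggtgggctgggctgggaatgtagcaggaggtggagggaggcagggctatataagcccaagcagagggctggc
Tnnt1: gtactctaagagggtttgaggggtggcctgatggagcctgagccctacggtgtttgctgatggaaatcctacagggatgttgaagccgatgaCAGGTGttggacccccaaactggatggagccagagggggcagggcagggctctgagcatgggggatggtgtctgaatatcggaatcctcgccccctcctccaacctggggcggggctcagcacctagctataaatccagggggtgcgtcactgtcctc
Tpm3: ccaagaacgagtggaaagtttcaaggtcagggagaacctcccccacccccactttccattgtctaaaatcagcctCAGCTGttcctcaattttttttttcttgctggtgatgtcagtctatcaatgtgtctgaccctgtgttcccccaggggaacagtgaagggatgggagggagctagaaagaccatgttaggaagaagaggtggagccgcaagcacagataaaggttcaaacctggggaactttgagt
Mylpf: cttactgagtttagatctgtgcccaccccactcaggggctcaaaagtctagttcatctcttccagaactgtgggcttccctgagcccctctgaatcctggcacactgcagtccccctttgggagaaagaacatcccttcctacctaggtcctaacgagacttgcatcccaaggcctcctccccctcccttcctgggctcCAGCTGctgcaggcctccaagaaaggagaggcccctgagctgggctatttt
Casq1: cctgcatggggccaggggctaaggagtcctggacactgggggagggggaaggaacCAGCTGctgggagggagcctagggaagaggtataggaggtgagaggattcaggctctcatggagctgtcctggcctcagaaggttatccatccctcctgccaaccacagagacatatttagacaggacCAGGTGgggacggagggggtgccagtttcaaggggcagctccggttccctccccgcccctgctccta

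Of the 39 members, 29 had a promoter in the RefSeq table, and an E-box stood in the 250 bases of 26 of them (89.7%), against 66% of 27025 genes. The MEF2 consensus, bound by the myocyte enhancer factors, was found in 5 of the 29 members (17.2%) and in 3.01% of all genes. These 5 were *Casq2*, *Myoz2*, *Pvalb*, *Ttn* and *Xirp2*. The core of the palindromic glucocorticoid receptor element, written ACANNNTGT, was found in 1 of 29 members (*Ckm*, 3.45%) and in 5.91% of all genes. A match in this window is a description of the letters and not of binding.

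Changes between libraries were computed as log2 of CPM + 0.5, and a gene was called at 1.5-fold or more in either direction. The 10563 genes above 0 in all 4 gastrocnemius libraries and with a mean of at least 50 counts were tested, and all 39 members were among them, the lowest with a mean of 911 counts. Of the 39, 26 were called in at least 1 of the 4 comparisons and 13 in none. The 4 comparisons share libraries in pairs and are therefore not independent of each other.

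With CORT in GRf/f muscle 8 of the 39 members were called. CORT raised 5 (12.8%), namely *Actn3*, *Casq2*, *Mylpf*, *Myom1* and *Myot*, and lowered 3 (7.7%), namely *Myl1*, *Casq1* and *Myl3*. Of all genes, 7.68% were called higher and 13.6% lower. The median of the members was 0.21 and that of all genes -0.09. Higher and lower members numbered 7 and 2 with TMM factors, 9 and 2 with median-of-ratios factors, and 8 and 2 after removal of the trend with transcript length described below. Of all genes, these settings called 9.56%, 10.3% and 9.76% higher and 10.9%, 10.2% and 10.7% lower. Median-of-ratios scaling shifted the median of all genes by 0.11, and the higher genes, 36.1% of all calls, became 46.8% with TMM factors and 50.3% with median-of-ratios factors.

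In GRmKO muscle CORT lowered 6 members (15.4%), all of them slow genes: *Tpm3*, *Tnnc1*, *Tnnt1*, *Tnni1*, *Myl3* and *Myl2*. It raised *Ryr1* (2.6%). Of all genes, 12.2% were called lower and 3.73% higher. The 11 fast genes all had positive changes, with a median of 0.19, but none reached the threshold, and the 10 slow genes all had negative changes, with a median of -0.69. With TMM factors the signs of *Casq2* and *Mybpc1* turned positive, and *Mylpf* passed the threshold for a rise. The lower members numbered 5 with TMM factors, with median-of-ratios factors and with a library total computed without muscle genes. The call lost was that of *Myl2*. Of all genes, these scalings called 8.11%, 8.37% and 10.3% lower. TMM and median-of-ratios factors shifted the median of all genes by 0.15 and 0.14, and moved the higher share of all calls from 23.4% to 41.7% and 40.1%.

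Between genotypes under vehicle, 9 members (23.1%) were higher and 5 (12.8%) lower in GRmKO than in GRf/f muscle, against 13.5% and 8.78% of all genes. The higher members comprised 8 of the 10 slow genes and the fast light chain *Mylpf*. The lower ones were *Ttn*, *Ryr1*, *Xirp2*, *Neb* and *Myot*. The median over the slow genes was 1.36, over the fast genes -0.21 and over all genes tested 0.07. TMM factors moved the higher share of all calls from 60.6% to 49.9%, and a total computed without muscle genes moved it to 47%, while 9 members, 8 of them slow genes, were called higher under each of these scalings. The lower members rose from 5 to 7 with TMM and median-of-ratios factors and to 9 with the total without muscle genes. In that order of scalings the lower share of all genes rose from 8.78% to 10.9%, 10.5% and 11.7%. The higher share of all genes fell from 13.5% to 10.9%, 11.3% and 10.4%.

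Under CORT, 11 members (28.2%) were higher and 11 (28.2%) lower in GRmKO than in GRf/f muscle, against 14.2% and 12.1% of all genes. The higher ones included the fast *Myl1*, *Pvalb*, *Tnnc2* and *Casq1* beside the slow *Tpm3*, *Myl3*, *Atp2a2*, *Tnnc1* and *Tnnt1* and the tropomyosins *Tpm1* and *Tpm2*. *Ttn*, *Neb* and *Xirp2* led the lower ones. The median of the members was 0.01 and that of all genes 0.04. After removal of the length trend 4 members were higher and 10 lower, against 9.5% and 10.4% of all genes. NOISeq, the method of the study as written out here, kept only *Myl1*, *Myl3* and *Tpm3* as higher and *Neb*, *Ttn* and *Xirp2* as lower. It called 1.64% of all genes higher and 2.18% lower.

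**Figure D1:**
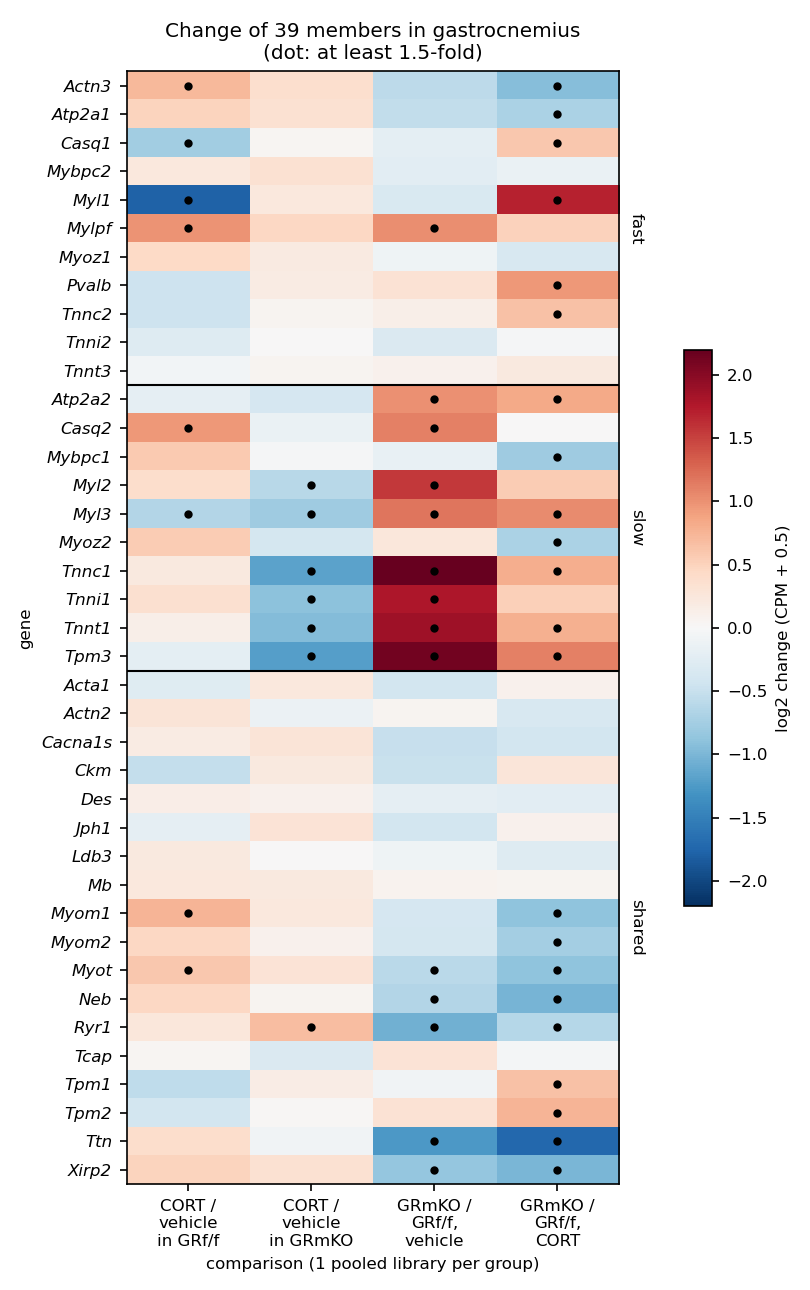
Log2 change of CPM + 0.5 for each of the 39 members (vertical axis, grouped as fast, slow and shared) in the 4 comparisons (horizontal axis), with a dot at 1.5-fold or more. In the column for GRmKO over GRf/f under vehicle, 8 of 10 slow genes are marked as higher, and in the column for CORT in GRmKO mice 6 of 10 slow genes are marked as lower.

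Transcript length moved with both genotype comparisons, and the value without the trend is given beside the genotype calls of the members below. Over all 10563 genes, the change in GRmKO relative to GRf/f muscle had a Spearman correlation with the length of the retained transcript of -0.41 under vehicle and -0.47 under CORT. Over the 39 members it was -0.68 and -0.69. The points share 2 libraries each, and the values are descriptions without a test. For CORT in GRf/f and in GRmKO mice the values over all genes were 0.10 and -0.01, and over the members 0.40 and 0.38.

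The 1690 tested transcripts under 1500 bases had a median change of 0.36 under vehicle and 0.46 under CORT in GRmKO relative to GRf/f muscle. The 220 transcripts of 10000 bases or more had medians of -0.44 and -0.46. Among the members, 20 are under 1500 bases, and 4 are of 10000 bases or more, namely *Ttn* (81843 bases), *Ryr1* (15358), *Xirp2* (11979) and *Neb* (10298). All 4 were called lower in GRmKO muscle under both treatments. When the trend with length was removed, an alternative chosen after seeing the data, *Ttn*, *Ryr1* and *Xirp2* were no longer called in either genotype comparison, and *Neb* was called only under CORT. The trend was fitted to all tested genes, the members included. *Ttn* is far longer than *Ryr1*, the next longest member, so its value depends on the far end of the fit. The loss of its call is therefore less certain than the others. Removal of the trend left 8 slow genes higher under vehicle and reduced those higher under CORT from 5 to 2. Of all genes, 9.47% were then higher and 8.66% lower under vehicle, and 9.5% and 10.4% under CORT. Of the 14 member calls under vehicle 5 were lost, and of the 22 under CORT 10 were lost, including *Casq1*, at 0.40. What the trend comes from was not tested.

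**Figure D2:**
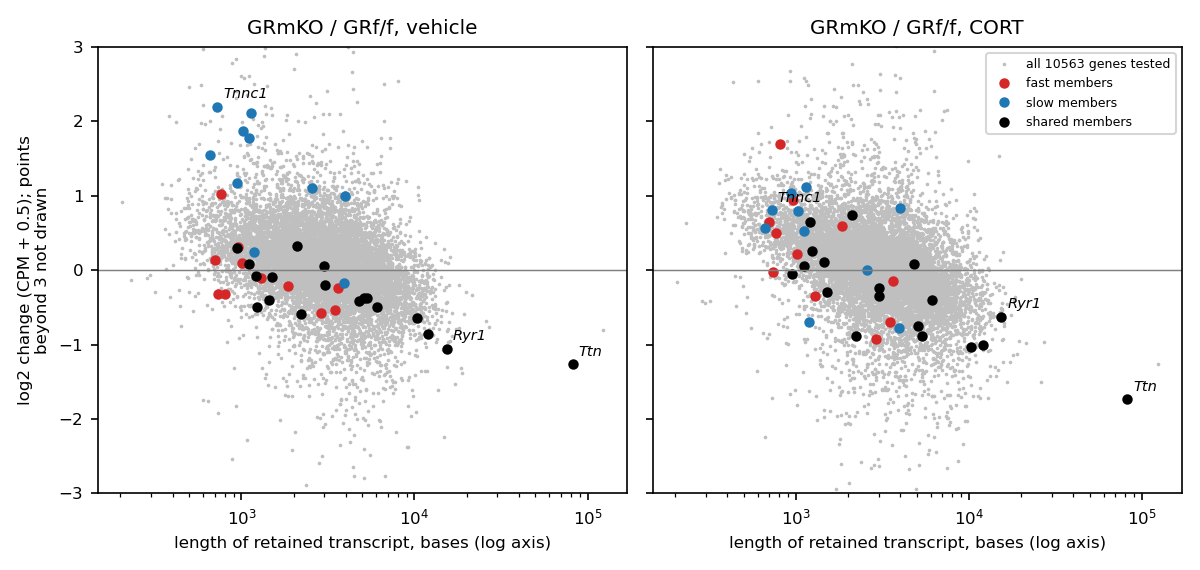
Log2 change in GRmKO relative to GRf/f muscle (vertical axis) against length of the retained transcript in bases (horizontal log axis), under vehicle and CORT, for all 10563 genes tested (grey) and the fast (red), slow (blue) and shared (black) members. Long transcripts lie lower, with a correlation over all genes of -0.41 under vehicle and -0.47 under CORT.

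The thin filament held the members with the largest changes. *Tnnc1* (chromosome 14, 31208312 to 31211729), the calcium-binding troponin subunit of slow and cardiac muscle, stood at 38.3, 44.5, 178 and 78.1 CPM. *Tnni1*, the slow inhibitory subunit, stood at 33.0, 42.2, 114 and 60.9 CPM. *Tnnt1* (chromosome 7, 4504570 to 4515975), the slow tropomyosin-binding subunit, stood at 27.8, 30.5, 103 and 53.2 CPM. For each of these 3 genes the vehicle-treated GRmKO library was the highest of the 4, the CORT-treated GRmKO library the next, and both GRf/f libraries the lowest.

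In GRmKO relative to GRf/f muscle under vehicle, *Tnnc1* was higher by 2.20 on the log2 scale (95% counting interval 2.10 to 2.33), *Tnnt1* by 1.87 (1.76 to 2.03) and *Tnni1* by 1.78 (1.67 to 1.92). With CORT in GRmKO mice *Tnnc1* changed by -1.18 (-1.27 to -1.10), *Tnnt1* by -0.95 (-1.06 to -0.85) and *Tnni1* by -0.90 (-1.01 to -0.81). In GRf/f mice the CORT changes of the same genes were 0.21, 0.13 and 0.35, none of them called. Under CORT *Tnnc1* and *Tnnt1* were still called higher in GRmKO muscle, at 0.80 and 0.79, and *Tnni1*, at 0.53, was not. After removal of the length trend the last 3 values were 0.19, 0.33 and 0.10, whereas those under vehicle were 1.72, 1.51 and 1.44.

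Their fast counterparts were far more abundant and moved less. *Tnnc2*, the fast calcium-binding subunit, stood at 6944, 5055, 7602 and 7920 CPM, and was called only between genotypes under CORT, at 0.65 (0.64 to 0.66), a value that fell to 0.02 without the length trend. *Tnni2*, the fast inhibitory subunit, at 6052, 4937, 4832 and 4870 CPM, and *Tnnt3*, the fast tropomyosin-binding subunit, at 8963, 8569, 9595 and 10001 CPM, were called in none of the comparisons, although *Tnni2* passed the threshold between genotypes without the length trend, at -0.79 under vehicle and -0.63 under CORT. *Tnnt3* has 23 coding transcripts, the most of any member, and its entry bears the identifier of 1 of them.

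*Tpm3* (chromosome 3, 90072649 to 90092130), the slow tropomyosin, stood at 51.3, 44.4, 224 and 96.7 CPM. It was 2.12 higher (2.03 to 2.23) in GRmKO muscle under vehicle and 1.11 higher (1.01 to 1.24) under CORT, or 1.78 and 0.70 without the length trend, and in GRmKO mice CORT changed it by -1.21 (-1.29 to -1.14). The tropomyosin *Tpm1*, at 16268, 11055, 15358 and 17254 CPM, and *Tpm2*, at 3384, 2573, 4239 and 4299 CPM, were lowest in the CORT-treated GRf/f library. Each was called only between genotypes under CORT, at 0.64 (0.63 to 0.65) for *Tpm1* and 0.74 (0.72 to 0.76) for *Tpm2*. Without the length trend *Tpm1* was no longer called, at 0.26, and *Tpm2* stood at 0.60. Tropomyosin genes make many isoforms, 16 coding transcripts for *Tpm1* and 7 for *Tpm3*, so that a shift between isoforms could not be seen here.

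*Neb*, which encodes nebulin, the ruler of the thin filament, stood at 1907, 2607, 1221 and 1274 CPM. Both GRmKO libraries lay below both GRf/f libraries, with changes of -0.64 (-0.67 to -0.62) under vehicle and -1.03 (-1.05 to -1.01) under CORT, which became -0.28 and -0.59 without the length trend. *Acta1* itself lay between 32605 and 43035 CPM and was not called, except between genotypes under vehicle without the length trend, at -0.67.

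**Figure D3:**
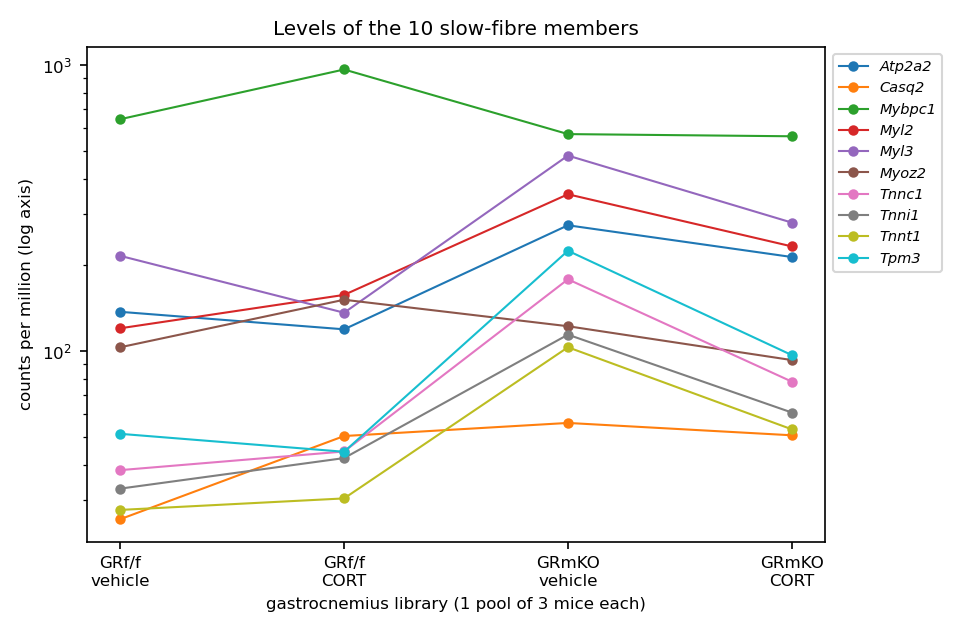
CPM (vertical log axis) of the 10 slow members in the 4 gastrocnemius libraries (horizontal axis), where lines only join the values of a gene. *Tnnc1*, *Tnni1*, *Tnnt1*, *Tpm3*, *Myl2*, *Myl3* and *Atp2a2* are highest in the vehicle-treated GRmKO library, whereas *Mybpc1* and *Myoz2* are highest in the CORT-treated GRf/f library.

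In the thick filament, the myosin light chains changed most, and the fast ones did not move together. *Myl1* (chromosome 1, 66924298 to 66935354), the fast essential light chain, stood at 9937, 2884, 7925 and 9363 CPM, and the CORT-treated GRf/f library was the only low one. CORT lowered it 3.44-fold in GRf/f mice, a change of -1.78 (-1.80 to -1.77), and in GRmKO mice the change was 0.24 (not called). Under CORT it was therefore 1.70 higher (1.69 to 1.71) in GRmKO than in GRf/f muscle, and 1.13 higher without the length trend, which also brought the change under vehicle past the threshold, at -0.77. The transcript named in its entry is 1 of 5 coding transcripts and starts 9702 bases downstream of the RefSeq gene start. Whether the value also holds counts of the other isoforms was not settled.

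*Mylpf* (chromosome 7, 127211608 to 127214298), the fast regulatory light chain, stood at 2513, 4975, 5105 and 7020 CPM. The vehicle-treated GRf/f library was the lowest of the 4 and the CORT-treated GRmKO library the highest. CORT raised it by 0.98 (0.97 to 1.00) in GRf/f mice, and GRmKO exceeded GRf/f muscle under vehicle by 1.02 (1.01 to 1.04). The latter fell to 0.57, just under the threshold, without the length trend.

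Both slow light chains were higher in vehicle-treated GRmKO muscle. *Myl2*, the slow and cardiac regulatory light chain, stood at 120, 157, 353 and 232 CPM, with a genotype change of 1.55 (1.49 to 1.62) under vehicle, 1.05 without the length trend, and a CORT change in GRmKO mice of -0.61 (-0.66 to -0.55). That fall was not called with TMM factors, at -0.45, with median-of-ratios factors, at -0.46, or with a total computed without muscle genes. *Myl3*, the slow and cardiac essential light chain, stood at 215, 136, 482 and 281 CPM and was the only member called in all 4 comparisons. CORT lowered it in both genotypes, with changes of -0.65 (-0.73 to -0.59) in GRf/f and -0.78 (-0.83 to -0.73) in GRmKO mice, and it was higher in GRmKO muscle by 1.17 under vehicle and 1.04 under CORT. Without the length trend the genotype changes were 0.77 and 0.54, the latter not called. The fall in GRf/f mice was not called with TMM factors, at -0.57, with median-of-ratios factors, at -0.54, or without the length trend, at -0.48.

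The myosin-binding proteins C, which brace the thick filament, behaved otherwise. *Mybpc1*, counted here as slow, stood at 646, 964, 573 and 563 CPM and was called only between genotypes under CORT, at -0.78 (-0.81 to -0.74), or -0.71 without the length trend. It thus went against most slow genes. Its change with CORT in GRf/f mice, 0.58, lay just under the threshold and passed it without the length trend, at 0.65. *Mybpc2*, the fast form, stood at 4421, 5218, 3763 and 4735 CPM and was not called. The myomesins, which crosslink thick filaments at the M-band, were highest in CORT-treated GRf/f muscle. *Myom1* stood at 1099, 1846, 850 and 1001 CPM, with a rise of 0.75 (0.72 to 0.77) with CORT in GRf/f mice, and *Myom2* stood at 874, 1202, 672 and 714 CPM. Under CORT both were lower in GRmKO muscle, with changes of -0.88 (-0.91 to -0.86) and -0.75 (-0.78 to -0.72), which were -0.70 and -0.59 without the length trend.

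All 10 members of the Z-disc and titin group had positive changes with CORT in GRf/f mice, with a median of 0.41, and 2 of them were called, *Actn3* and *Myot*. All 10 had negative changes in GRmKO relative to GRf/f muscle under CORT, with a median of -0.53 and 5 calls. These 2 comparisons share the CORT-treated GRf/f library, so the signs are not independent. The signs were kept with TMM factors, median-of-ratios factors, a total without muscle genes and removal of the length trend.

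*Actn3* (chromosome 19, 4861216 to 4877909), the α-actinin of fast fibres, stood at 7144, 11768, 4792 and 6186 CPM. It rose with CORT in GRf/f mice by 0.72 (0.71 to 0.73) and was lower in GRmKO muscle under CORT, at -0.93 (-0.94 to -0.92), or -0.96 without the length trend. Under vehicle its genotype change, -0.58, lay just under the threshold and passed it without the length trend, at -0.65. *Myot*, which encodes myotilin, an actin crosslinker at the Z-disc, stood at 750, 1136, 499 and 615 CPM. Its CORT change in GRf/f mice, 0.60 (0.57 to 0.63), was close to the threshold and not called with a total computed without muscle genes, and it was lower in GRmKO muscle, with changes of -0.59 under vehicle and -0.88 under CORT, or -0.72 and -1.01 without the length trend.

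*Ttn* (chromosome 2, 76703980 to 76982455), titin, the spring that spans from Z-disc to M-band, stood at 4681, 6137, 1951 and 1849 CPM. Both GRmKO libraries lay below both GRf/f libraries, and the changes were -1.26 (-1.28 to -1.25) under vehicle and -1.73 (-1.75 to -1.71) under CORT. Without the length trend they were -0.15 and -0.40, values that depend on the far end of the fitted trend. *Xirp2*, an actin-binding repeat protein of the Z-disc, stood at 1756, 2467, 973 and 1224 CPM, with changes of -0.85 and -1.01 that became -0.42 and -0.51.

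The calsarcins link α-actinin to calcineurin at the Z-disc. *Myoz1*, the fast form, stood at 1709, 2316, 1590 and 1813 CPM and was not called, but passed the threshold without the length trend with CORT in GRf/f mice, at 0.60, and between genotypes under CORT, at -0.71. *Myoz2*, the slow form, stood at 103, 151, 122 and 92.9 CPM and was lower in GRmKO muscle under CORT, at -0.70 (-0.79 to -0.62), or -1.09 without the length trend. With CORT in GRf/f mice its change was 0.56 (not called), which passed the threshold without the length trend, at 0.72. *Actn2*, *Des*, *Ldb3* and *Tcap* were not called, with changes between -0.35 and 0.30.

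Among the calcium handling members, the pumps and stores differed by fibre type. *Atp2a2* (chromosome 5, 122453514 to 122501895), the slow and cardiac pump SERCA2, stood at 137, 119, 275 and 213 CPM, and both GRmKO libraries were above both GRf/f libraries. The genotype changes were 1.00 (0.94 to 1.07) under vehicle and 0.84 (0.77 to 0.91) under CORT, and they stood at 1.01 and 0.90 without the length trend. *Atp2a1*, the fast pump SERCA1, stood at 27403, 38461, 18904 and 23839 CPM and was called only between genotypes under CORT, at -0.69 (-0.70 to -0.68), or -0.66 without the length trend. Between genotypes under vehicle it changed by -0.54, which passed the threshold with TMM factors, at -0.62.

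*Casq2* stood at 25.8, 50.4, 56.0 and 50.7 CPM, with the vehicle-treated GRf/f library as the only low one. CORT raised it by 0.95 (0.81 to 1.12) in GRf/f mice, and under vehicle it was higher by 1.10 (0.97 to 1.27) in GRmKO muscle, or by 1.01 without the length trend. *Casq1* (chromosome 1, 172209894 to 172219868), the fast calsequestrin, stood at 3346, 1979, 2886 and 2983 CPM, with the CORT-treated GRf/f library as the low one. The CORT change in GRf/f mice was a fall, at -0.76 (-0.78 to -0.74), and its change in GRmKO mice was 0.05.

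*Pvalb*, the calcium buffer parvalbumin of fast fibres, stood at 8381, 6143, 10407 and 11828 CPM and was higher in GRmKO muscle under CORT by 0.95 (0.94 to 0.96), a change of 0.45 without the length trend. *Ryr1*, the calcium release channel, stood at 2081, 2476, 1001 and 1604 CPM. It was lower in GRmKO muscle, with changes of -1.05 (-1.08 to -1.03) under vehicle and -0.63 (-0.65 to -0.61) under CORT, which were -0.53 and -0.03 without the length trend. CORT raised it by 0.68 (0.65 to 0.71) in GRmKO mice, and there the value was 0.77 without the trend. *Cacna1s*, the voltage sensor, and *Jph1*, which ties the reticulum to the transverse tubule, were not called, with changes between -0.50 and 0.30. Neither were *Ckm*, the muscle creatine kinase, and *Mb*, myoglobin, with changes between -0.53 and 0.26, although *Ckm* stood at -0.80 between genotypes under vehicle without the length trend.

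The ratio of a fast isoform to its slow counterpart within a library does not depend on the scaling between libraries. Each pair sets a gene of the fast list over a gene of the slow list, with an exception for the tropomyosins. There *Tpm1*, a gene of the shared list, stands as the fast partner of *Tpm3*. Over 10 such pairs, all 10 ratios were lower in GRmKO than in GRf/f muscle under vehicle, with a median change of -1.52 on the log2 scale, or 2.86-fold lower. In GRmKO mice all 10 were higher with CORT, with a median change of 0.97, or 1.96-fold. In GRf/f mice 8 of the 10 were lower and 2 higher with CORT, with a median of -0.34. Between genotypes under CORT 6 were lower and 4 higher, with a median of -0.11. No threshold was applied to the ratios.

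The tropomyosin ratio *Tpm1* to *Tpm3* stood at 317, 249, 68.6 and 178. Its change between genotypes under vehicle, -2.21 (-2.31 to -2.11), was the largest of the 10. The troponin C ratio *Tnnc2* to *Tnnc1* stood at 181, 114, 42.8 and 101, the troponin I ratio *Tnni2* to *Tnni1* at 183, 117, 42.2 and 79.9, and the troponin T ratio *Tnnt3* to *Tnnt1* at 322, 281, 93 and 188. In each of these 4 ratios the vehicle-treated GRmKO library was the lowest and the CORT-treated GRmKO library lay below both GRf/f libraries.

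The SERCA ratio *Atp2a1* to *Atp2a2* stood at 200, 322, 68.7 and 112 and its CORT change was 0.69 (0.61 to 0.77) in GRf/f and 0.70 (0.64 to 0.76) in GRmKO mice. The calsequestrin ratio *Casq1* to *Casq2* stood at 130, 39.3, 51.6 and 58.8, and had the largest CORT change in GRf/f mice, -1.73 (-1.88 to -1.57). The essential light chain ratio *Myl1* to *Myl3* stood at 46.3, 21.2, 16.4 and 33.3, and the regulatory ratio *Mylpf* to *Myl2* at 20.9, 31.7, 14.5 and 30.3. The 2 light chain ratios moved in opposite directions with CORT in GRf/f mice, by -1.13 (-1.20 to -1.06) and 0.60 (0.52 to 0.68). The myosin-binding protein C and myozenin ratios changed least between genotypes under vehicle, by -0.06 and -0.35. In pooled tissue, a different share of slow fibres and a different amount of slow-fibre RNA per fibre cannot be told apart.

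**Figure D4:**
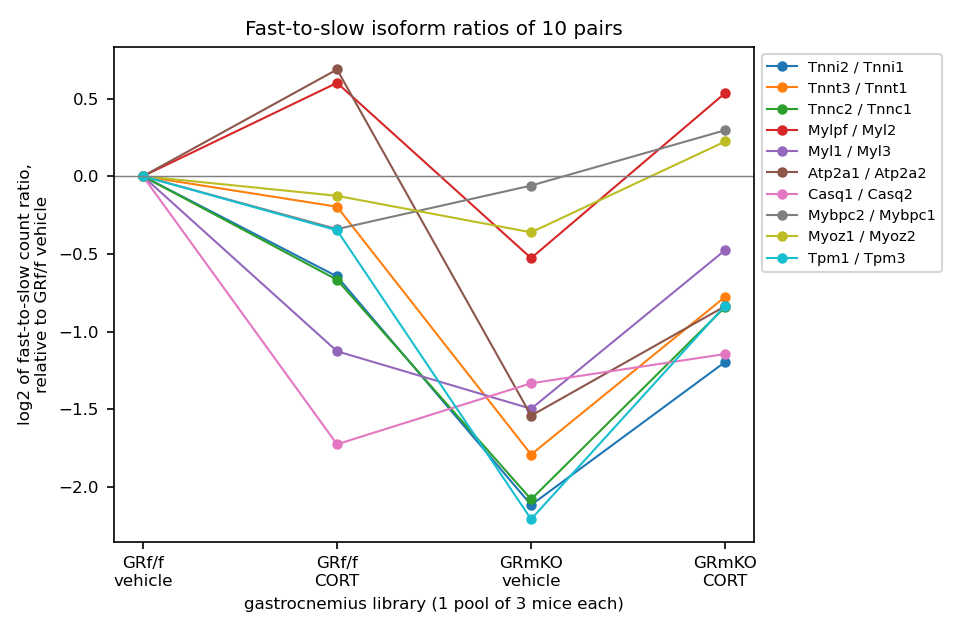
Log2 of the fast-to-slow count ratio of 10 pairs in each gastrocnemius library (horizontal axis), relative to the vehicle-treated GRf/f library (vertical axis). The fast partner of *Tpm3* is *Tpm1*, a gene of the shared list. All 10 pairs lie below 0 in the vehicle-treated GRmKO library, and the 2 pairs above 0 in the CORT-treated GRf/f library are *Atp2a1* to *Atp2a2* and *Mylpf* to *Myl2*.

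Slow-fibre genes outside the members moved partly alongside. Of 5 tested, *Sln*, *Myl6b* and *Myh7* were higher in GRmKO muscle under vehicle and lower with CORT in GRmKO mice. *Sln*, which encodes sarcolipin, an inhibitor of SERCA, stood at 2.87, 2.99, 27.3 and 4.98 CPM, and *Myh7*, the slow myosin heavy chain, at 180, 204, 393 and 178 CPM. *Csrp3* and *Ankrd2* were instead raised by CORT in GRf/f mice, by 1.63 and 0.86, and were lower in GRmKO muscle under CORT, at -1.28 and -1.36. Of the fast heavy chains, *Myh4* stood at 35764, 30831, 15392 and 25114 CPM, the vehicle-treated GRmKO library being the lowest, and *Myh1* at 1688, 1579, 1047 and 1016 CPM.

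Other genes of the sarcomere and its Z-disc, 39 in number, included 11 called higher and 5 lower with CORT in GRf/f mice, and 2 and 2 in GRmKO mice. Between genotypes 2 were higher and 5 lower under vehicle, and 3 and 12 under CORT. Without the length trend these counts were 1 and 6, and 2 and 11. The largest change with CORT in GRf/f mice was that of *Xirp1*, a relative of *Xirp2*, at 308, 1731, 143 and 322 CPM (2.49), followed by *Ankrd1* (1.82) and *Csrp3*. In GRmKO mice it was that of *Mybph* (1.26), then *Xirp1* (1.17) and *Myl6b* (-1.0). Between genotypes *Myl6b* (1.37) and *Xirp1* (-1.11) led under vehicle, and *Xirp1* (-2.42), *Pdlim5* (-1.96) and *Ankrd1* (-1.95) under CORT.

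Of 31 other genes of calcium handling and the triad that could be tested, 7 were lower and none higher by 1.5-fold with CORT in GRf/f mice, although TMM and median-of-ratios factors gave 2 higher. *Slc8a3*, a sodium-calcium exchanger, stood at 56.4, 20.1, 78.7 and 69.5 CPM (-1.46) and *Orai1*, a store-operated calcium channel, at 57.1, 23.3, 55.0 and 49.2 CPM (-1.28), followed by *Dysf* (-1.04). In GRmKO mice 2 were lower with CORT, *Sln* (-2.34) and *Mtm1* (-0.76). Between genotypes 3 were higher and 2 lower under vehicle, led by *Sln* (3.04), *Dysf* (-0.94) and the calmodulin gene *Calm2* (0.80), and 6 higher and 2 lower under CORT, led by *Slc8a3* (1.77), *Orai1* (1.06) and *Calm2* (0.88). Without the length trend 1 was higher and 2 lower under vehicle, and 4 higher and 1 lower under CORT.

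Markers of other cell types moved in the same libraries. Macrophage markers, 6 listed and 5 tested, summed to 197, 101, 593 and 153 CPM, and all 5 were higher in GRmKO muscle under vehicle and lower with CORT in GRmKO mice, which is the pattern of the slow genes. Fibroblast and tendon markers summed to 1538, 558, 2355 and 783 CPM, with 3 of 6 higher in GRmKO muscle under vehicle and 5 of 6 lower with CORT in GRmKO mice. Erythroid markers summed to 494, 486, 865 and 1588 CPM, and all 3 were higher in GRmKO muscle under both treatments.

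Hepatocyte markers summed to 7.1, 10.5, 92.3 and 324 CPM, and all 6 tested of 9 listed were higher in GRmKO muscle under both treatments. Adipocyte markers summed to 277, 714, 390 and 567 CPM, with 6 of 7 higher with CORT in GRf/f and 5 of 7 in GRmKO mice. The 6 smooth muscle markers other than the member *Des* summed to between 326 and 361 CPM, endothelial markers between 208 and 296 CPM and Schwann cell and nerve markers between 211 and 400 CPM. Cardiac markers, which matter because heart shares *Myl2*, *Myl3*, *Tnnc1*, *Atp2a2* and *Casq2* with slow fibres, summed to 9.65, 4.19, 19 and 11.2 CPM, and 2 of the 6 were above the floor in all 4 libraries. The part of these cells in the changes of the members was not tested.

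In liver, 28 of the 39 members were under 1 CPM in all 4 libraries. The members that reached 10 CPM, *Atp2a2*, *Tpm1* and *Tpm3*, are also used by other cells, and the entry of each bears another transcript identifier than in muscle. *Atp2a2* stood at 86.5, 176, 95 and 129 CPM, *Tpm3* at 64.1, 53.5, 60.9 and 56.4 CPM and *Tpm1* at 10.3, 11.2, 9.37 and 14.1 CPM. The summed level of the 39 was 177, 251, 182 and 224 CPM, and without *Des*, *Atp2a2* and the 3 tropomyosins, which smooth muscle also uses, it was 8.63, 6.05, 7.66 and 15.3 CPM. The highest of these values was in the CORT-treated GRmKO library, where the fast genes summed to 5.34 CPM against 0.0484 to 0.906 CPM in the other libraries.

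In gonadal WAT 7 members reached 10 CPM, and for *Acta1*, *Des* and *Myl1* the retained transcript was that of gastrocnemius. *Acta1* stood at 37.4, 113, 199 and 103 CPM, which is 0.0869%, 0.316%, 0.61% and 0.269% of its level in gastrocnemius of the same group. The median of this percentage over the 21 members with the same retained transcript in both tissues was lower, at 0.0306%, 0.0229%, 0.0151% and 0.0157%. *Myl1* stood at 40.5, 25.7, 35.5 and 27.0 CPM, and *Des*, the intermediate filament desmin, at 39.9, 19.2, 33.3 and 26.9 CPM. *Acta1* and *Myl1* did not share an order of the libraries, since *Acta1* was lowest and *Myl1* highest in the vehicle-treated GRf/f library.

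The other 4 members at 10 CPM or more in WAT had entries with other transcript identifiers than in muscle. *Tpm3* stood at 193, 201, 183 and 211 CPM, *Atp2a2* at 82.5, 173, 110 and 121 CPM, *Tpm1* at 58.1, 45.3, 55.8 and 54.7 CPM and *Tpm2* at 29.4, 11.9, 22.2 and 19.6 CPM. The members summed to 517.1, 609, 664 and 580 CPM, and to 114, 158, 260 and 147 CPM without those that smooth muscle also uses. Of the latter sums *Acta1* alone held 37.4, 113, 199 and 103 CPM, and *Myl1* 40.5, 25.7, 35.5 and 27.0 CPM. The 6 smooth muscle markers other than *Des* summed to 386, 316, 429 and 318 CPM in WAT.

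**Figure D5:**
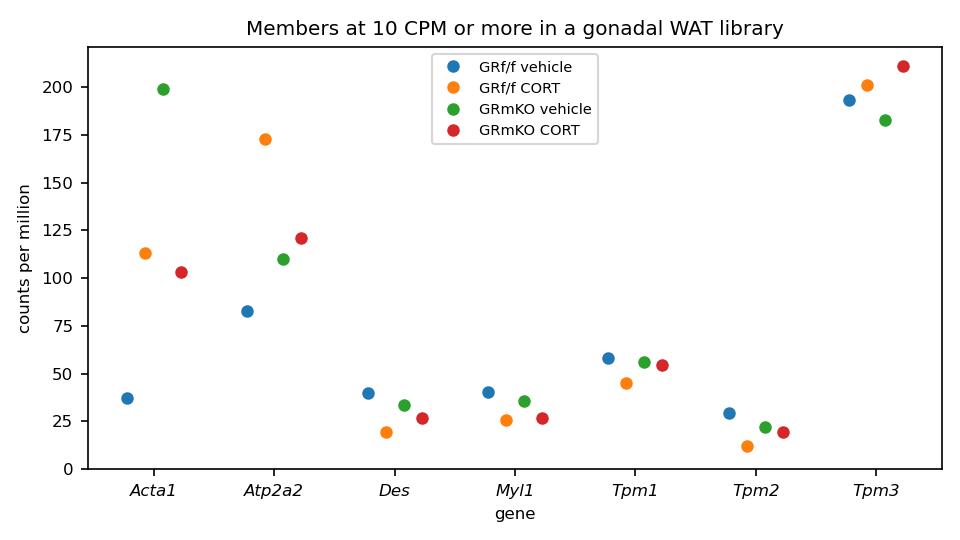
CPM (vertical axis, from 0) of the 7 members that reached 10 CPM in gonadal WAT, with 1 point for each of the 4 libraries. *Acta1* ranges from 37.4 to 199 CPM, and *Tpm3* stays between 183 and 211 CPM.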

How the data were processed

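The authors pooled RNA of 3 mice per group, sequenced paired reads of 100 bases, quantified protein-coding GENCODE transcripts with Salmon 1.2.1 (mm10 per the labels), and imported them into R 3.5.0 with tximport on its length-scaled setting. The deposited values are expected counts (estimated counts), unscaled between libraries. For each gene name the entry with the largest total was kept by the authors. It bears 1 transcript identifier, and whether it sums over the gene was not settled. Positions and lengths are those of that transcript in GENCODE M21, on the same build.

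CPM is the expected count divided by the library total, times 1000000. With 1 library per group no test was run. The fold rule, 1.5-fold on log2(CPM + 0.5), replaced NOISeq, which the study used and which was written out here as an alternative. Ratios carry 95% Clopper-Pearson intervals on rounded counts, computed without the 0.5 CPM. The call and its intervals were checked on artificial counts. Alternatives were TMM factors (edgeR 4.0.16), median-of-ratios factors (DESeq2 1.42.0), a library total without muscle genes, a pseudocount of 2 CPM, no minimum count, a lower and a higher fold, NOISeq and, chosen after seeing the data, removal of a lowess trend with log2 length. Python 3.11.15, numpy 2.4.6, pandas 2.3.3, scipy 1.17.1 and statsmodels 0.14.6 were used.

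Members and lists were chosen with earlier results of these data known. Values in every library are given for members called at least once and for the 10 fast and slow pairs, and of the other lists the 3 largest called changes are named, except for 1 that is not reported here.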

Additional observations from a re-analysis of the deposited data

Results flagged for a closer look

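In 4 members the CORT response had opposite signs in the 2 genotypes, lay at least 1 log2 unit apart, and both counting intervals excluded 0. With 1 library per group the difference was not tested. The limit of 1 was set after the values were seen. The response in GRmKO minus that in GRf/f muscle was 2.02 for *Myl1*, which fell in GRf/f mice (-1.78) and stood at 0.24 in GRmKO mice. It was -1.39 for *Tnnc1* (0.21 and -1.18), -1.25 for *Tnni1* (0.35 and -0.90) and -1.10 for *Casq2* (0.95 and -0.14). For *Casq2* the response in GRmKO mice became positive with TMM factors. In all, 21 of the 39 members had responses of opposite sign, most of them under the threshold in both genotypes.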

How the results depend on the processing

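No change called in a comparison had the other sign in that comparison under any alternative, but changes under the threshold did switch sign, among them those of *Mylpf* (0.50 to -0.09) and *Myl2* (0.56 to -0.09) between genotypes under CORT without the length trend. In the order CORT in GRf/f, CORT in GRmKO, GRmKO over GRf/f under vehicle and the same under CORT, 8, 7, 14 and 22 members were called. A lower fold (0.32 on the log2 scale) gave 23, 14 and 25 in the first 3. Of all genes it called 16.7%, 9.06% and 27.7% higher and 27.8%, 24.5% and 18.9% lower. A fold of 2 gave 1 and 2 for CORT and 6 between genotypes under CORT. Of all genes it called 3.1%, 1.34% and 4.17% higher and 4.53%, 4.17% and 4.55% lower. NOISeq gave 2, 3 and 6 in the same places. Of all genes it called 1.62%, 0.561% and 1.64% higher and 1.85%, 1.45% and 2.18% lower. Without the length trend the count between genotypes under CORT was 14, 4 higher and 10 lower. The cause of these moves other than the fold itself was not tested. The member median for CORT in GRf/f mice moved from 0.21 to 0.30 (TMM), 0.33 (median-of-ratios) and 0.31 (length trend removed), and for CORT in GRmKO mice from 0.06 to 0.22, 0.20 and 0.15, with 0.12 for a total without muscle genes. Under vehicle the genotype median moved from -0.10 to -0.18, -0.17, -0.27 and -0.20 in that order, and under CORT from 0.01 to -0.15 without the length trend. A minimum count of none and a pseudocount of 2 CPM changed no call of a member. Removal of the length trend ended 16 calls and added 10, among them *Acta1* (-0.67), *Ckm* (-0.80) and *Tnni2* (-0.79) under vehicle. The medians of the fast-to-slow ratios stayed within counting error without the tropomyosin pair, with 0.5 CPM added and without the length trend. In liver the summed level fell from 177, 251, 182 and 224 to 8.63, 6.05, 7.66 and 15.3 CPM, and in WAT from 517.1, 609, 664 and 580 to 114, 158, 260 and 147 CPM, when members shared with smooth muscle were left out. No paired analysis was possible because each group has 1 library. At this depth counting error is small, and the spread between mice is unknown.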
